A study of Mus musculus with 12 samples.

Results

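Collagen chain genes encode the subunits of the collagens, the main structural proteins of the extracellular matrix. They were taken as every gene whose symbol reads Col, a number, a, and a second number, as in Col4a6. This gave 44 of the 47729 genes in the deposited files. By the supramolecular structure of their products, 11 genes were grouped as fibrillar, 8 as basement membrane, 9 as network and 16 as minor collagens. Their RNA was compared among 4 fat depots: interscapular brown adipose tissue (BAT) and the epididymal (EWAT), inguinal (IWAT) and retroperitoneal (RWAT) white depots. Each depot had 3 RNA sequencing libraries, named here BAT 1 to BAT 3 and so on, where the number is used only as a name. All 12 came from male wild-type C57BL/6J mice aged 6 to 10 weeks on a standard low-fat rodent diet. All the fat had been surgically denervated, and no innervated fat was analysed here, so depot was what the labels set apart. Whether libraries of 1 depot are separate animals is not in the labels, so each p-value rests on the spread among samples alone, and that spread may be technical.

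Each collagen is a triple helix of 3 chains, either identical or from different genes. Fibrillar collagens assemble into the banded fibres that bear tension. Type IV collagen forms the sheet of the basement membrane, which surrounds every adipocyte and blood vessel, and types XV and XVIII link that sheet to the tissue around it. Type VI forms beaded microfilaments and types VIII and X form lattices, while the minor collagens decorate fibrils, span cell membranes or anchor epithelia. In fat the collagen scaffold limits how far adipocytes can expand, and type VI collagen is the chain family best known for that role.

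Library totals ran from 15699763 to 25633270 counts. Levels between genes are given as TPM, the transcript abundance of a gene within its library, corrected for length. Levels of gene lists are summed CPM, counts relative to library size after TMM scaling between libraries, without correction for length. Adipoq, the adipocyte hormone adiponectin, was between 426 and 2187 TPM in all 12 libraries. Ucp1, the uncoupling protein that defines brown fat, was at 1191, 21.7 and 563 TPM in BAT 1, BAT 2 and BAT 3. BAT 2 was therefore below the 3 IWAT libraries, which held 23.0 to 93.6 TPM of Ucp1. The 18 skeletal muscle markers summed to 2703 to 22981 CPM in BAT and 18695 CPM in RWAT 3, against 21.2 to 90.2 CPM in the 8 other libraries. Counts of called genes are therefore also given without BAT 2 and without RWAT 3.

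Of the 44 genes, 40 passed the filter on low counts: 10 fibrillar, 8 basement membrane, 9 network and 13 minor collagens. The other 4 were genes of cartilage or of rare fibril-associated collagens. Col2a1 had 115 counts over the 12 libraries, Col19a1 had 89, Col9a2 had 17 and Col9a1 had 14. A gene was called at an adjusted p under 0.05 by edgeR's quasi-likelihood test, with the Benjamini-Hochberg adjustment over all 19154 genes tested. The test for any difference among the 4 depots called 2 collagen genes, Col4a6 and Col6a5, where 0.512% of all genes were called. It called the same number without BAT 2, among 21 genes in all. Without RWAT 3 it called 3 among 336, where Col4a5 was added. Col4a6 and Col6a5 had their highest levels in EWAT, together with Col4a5, the gene next to Col4a6. The remaining 38 tested collagen genes did not pass this test, and the levels of the most abundant chains, Col3a1, Col1a1 and Col1a2, overlapped between all 4 depots.

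The sequences before the starts of Col4a6, Col4a5 and Col6a5 are shown because these were the chains called against BAT. Each run covers the bases from 250 to 51 before the RefSeq start of the gene on build GRCm38.p6, read 5′ to 3′ on the gene's own strand, and overlaps no annotated exon. Capitals mark a match to 1 of 3 short promoter motifs, searched on both strands: CCAAT (the CCAAT box), GGGCGG (the GC box) and TATAAA (the TATA box). The Col4a6 run is at chrX:141474127-141474326 on the minus strand, the Col4a5 run is at chrX:141475169-141475368 on the plus strand, and the Col6a5 run is at chr9:105960694-105960893 on the minus strand.
Col4a6: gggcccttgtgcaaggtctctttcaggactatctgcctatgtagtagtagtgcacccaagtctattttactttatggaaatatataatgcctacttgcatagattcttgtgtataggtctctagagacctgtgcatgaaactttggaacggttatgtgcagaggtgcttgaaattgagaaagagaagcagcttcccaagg
Col4a5: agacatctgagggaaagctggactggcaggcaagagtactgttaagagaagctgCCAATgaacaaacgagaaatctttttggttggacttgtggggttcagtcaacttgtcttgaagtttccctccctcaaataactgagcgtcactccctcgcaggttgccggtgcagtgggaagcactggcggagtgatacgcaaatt
Col6a5: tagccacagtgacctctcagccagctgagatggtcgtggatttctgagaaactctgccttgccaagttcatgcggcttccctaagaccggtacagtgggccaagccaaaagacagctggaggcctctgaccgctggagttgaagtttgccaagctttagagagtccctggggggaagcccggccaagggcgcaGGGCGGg
The Col4a6 run held none of the 3 motifs, the Col4a5 run held 1 CCAAT and the Col6a5 run held 1 GGGCGG, both on the gene's strand and overlapping no other match. Of 32851 runs of the same length and position before RefSeq starts, 28.43% held CCAAT, 24.64% held GGGCGG and 9.141% held TATAAA. Among 38 such runs of the 35 collagen genes that the table held, 10 had CCAAT, 18 had GGGCGG and 4 had TATAAA. These are matches of letters and not binding sites, and the absence of a match says only that these letters are not in this window.

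Col4a6 encodes the alpha 6 chain of type IV collagen, which trimerises with alpha 5 chains in the basement membranes of some epithelia and of smooth muscle. In the GENCODE M21 annotation of GRCm38 the gene lies on the minus strand of chromosome X from 141165403 to 141474076. It was at 0.07, 0.05 and 0.07 TPM in BAT, from 7, 5 and 8 counts, and at 5.03, 4.17 and 4.88 TPM in EWAT. It was at 0.13, 0.21 and 0.29 TPM in IWAT and at 0.81, 0.92 and 3.25 TPM in RWAT. The 4 depots did not overlap, with BAT lowest, then IWAT, RWAT and EWAT, and RWAT 3 stood above the other two RWAT libraries. All BAT libraries lay below the 9 others for 0.757% of tested genes, and Col4a6 was the 1 collagen gene among them. The adjusted p for any depot difference was 0.00513. Col4a6 was lower in BAT than in EWAT (log2 fold change -5.58, SE 0.56, adjusted p = 0.00392) and lower in IWAT than in EWAT (-4.36, SE 0.52, adjusted p = 0.0115). BAT was also lower than RWAT (log2 fold change -3.97, SE 0.54, adjusted p = 0.0415). Fitted fold changes of a gene this low in a depot depend on the small count that edgeR adds, so the levels above carry the comparison. EWAT against RWAT was not called (log2 fold change 1.61, SE 0.46, adjusted p = 0.263), nor was BAT against IWAT (-1.22, SE 0.53, adjusted p = 0.998). The difference among depots was called when any 1 library was left out, with an adjusted p of up to 0.0368 without EWAT 2. The adjusted p for BAT against EWAT was 0.0509 without BAT 2 and 0.000447 without RWAT 3. The difference from IWAT was lost without IWAT 1 (0.0700) or IWAT 2 (0.0605). The difference from RWAT was lost without any of the 9 BAT, EWAT and IWAT libraries or RWAT 1, at adjusted p-values from 0.0606 to 0.260, and with limma-voom (0.322).

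Col4a5, the gene for the alpha 5 chain, starts 1308 bases from Col4a6 and runs the other way along chromosome X, from 141475385 to 141689234. Variants in its human counterpart cause Alport syndrome, a disease of the kidney filter. Its levels were 0.98, 1.25 and 2.83 TPM in BAT, 20.5, 15.4 and 16.7 in EWAT, 2.75, 4.77 and 7.44 in IWAT, and 2.77, 5.26 and 15.1 in RWAT. The 3 EWAT libraries were above the 9 others, with RWAT 3 just under them, while BAT 3 overlapped the IWAT and RWAT ranges in TPM. In CPM, which is scaled between libraries, BAT held 8.27, 7.20 and 12.7, all below the 17.3 to 26.6 of IWAT. BAT 3 still overlapped RWAT, which held 12.4 CPM in RWAT 1. Col4a5 was lower in BAT than in EWAT (log2 fold change -2.85, SE 0.49, adjusted p = 0.0397), and this was its only call. Its adjusted p for any depot difference was 0.0704. The call against EWAT was lost when BAT 1, BAT 2, EWAT 2, EWAT 3 or any IWAT library was left out, at adjusted p-values from 0.0521 to 0.172, and with limma-voom (0.0648). Per length, Col4a5 exceeded Col4a6 by 3.42 to 4.08 times in EWAT, by 3.42 to 5.72 times in RWAT and by 21.2 to 25.7 times in IWAT. The ratio in BAT rests on 5 to 8 counts of Col4a6 and is not compared.

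Col6a5 encodes a long alpha chain of type VI collagen that is thought to stand in for the alpha 3 chain in some trimers. The gene lies on the minus strand of chromosome 9 from 105856078 to 105960643. It was at 0.12, 0.64 and 0.23 TPM in BAT, 49.8, 31.7 and 34.0 in EWAT, 0.58, 0.25 and 1.89 in IWAT, and 3.73, 3.94 and 13.2 in RWAT. EWAT was above RWAT, and RWAT was above the BAT and IWAT libraries, which overlapped each other. The adjusted p for any depot difference was 0.0133. Col6a5 was lower in BAT than in EWAT (log2 fold change -6.31, SE 0.84, adjusted p = 0.0237) and lower in IWAT than in EWAT (-5.28, SE 0.79, adjusted p = 0.0275). The difference from RWAT was not called for BAT (-3.83, SE 0.75, adjusted p = 0.223), for IWAT (-2.79, SE 0.71, adjusted p = 0.696) or for EWAT (2.49, SE 0.70, adjusted p = 0.257). The call among depots was lost without BAT 1 (adjusted p 0.0612), EWAT 2 (0.0582) or IWAT 1 (0.0718). The call of BAT against EWAT was lost without BAT 1 (0.114), BAT 2 (0.0588), EWAT 2 (0.0764) or IWAT 1 (0.0569). The call of IWAT against EWAT was lost without BAT 1 (0.0621), EWAT 2 (0.0992), EWAT 3 (0.0542), IWAT 1 (0.173) or IWAT 2 (0.155). In EWAT the gene reached 0.124 to 0.222 times the level of Col6a3, against 0.00653 to 0.0308 times in RWAT and at most 0.00409 times in BAT and IWAT. Its neighbours on the same strand, Col6a6 and Col6a4, are 27917 and 28810 bases away. Col6a6 was at 5.73 to 7.61 TPM in EWAT within a range of 1.06 to 9.54 TPM elsewhere, and Col6a4 was at 1.92 TPM or less throughout; neither set EWAT apart from the other libraries (adjusted p 0.514 and 0.382 for any depot difference).

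**Figure D1:**
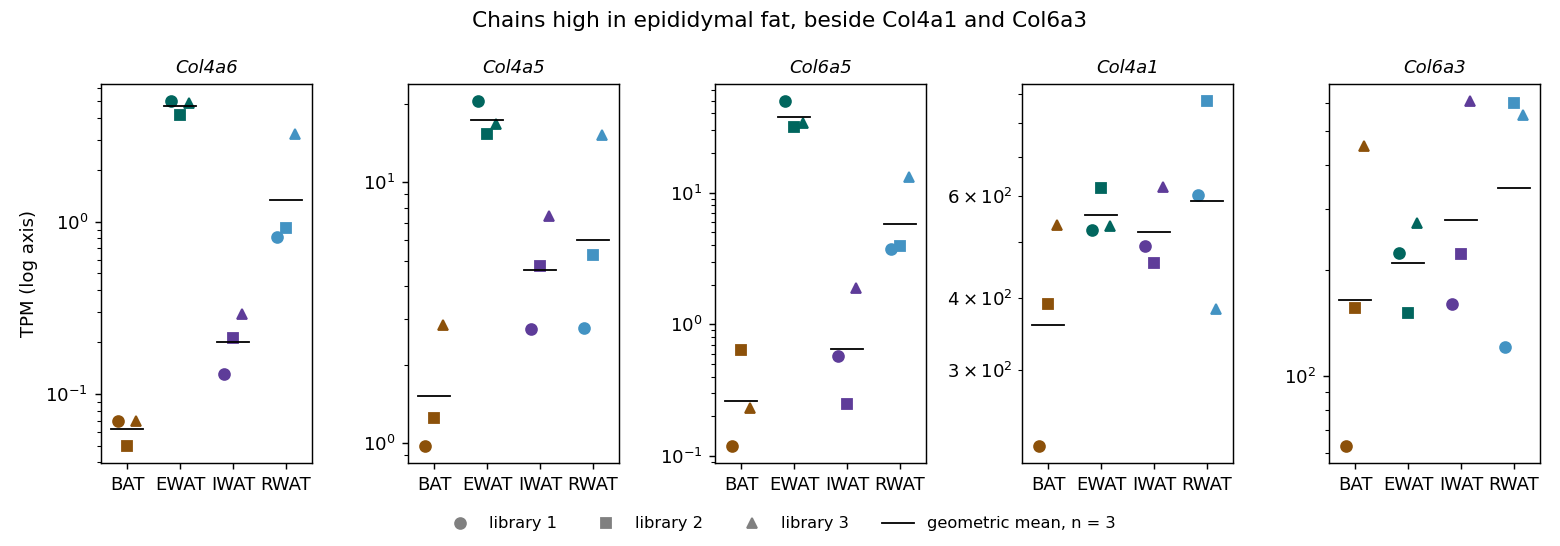
Levels of 5 collagen chains in the 12 libraries, in TPM on a log axis that differs between panels; each point is 1 library, its shape gives the library's number, and the line is the geometric mean of 3. Col4a6, Col4a5 and Col6a5 are highest in the 3 EWAT libraries, with RWAT 3 highest among RWAT, whereas the depots overlap for Col4a1 and Col6a3.

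Sums of markers for some other cells were also highest in EWAT and RWAT 3. The 11 mesothelial markers, genes of the cell layer that covers fat inside the body cavity, summed to 324, 203 and 155 CPM in EWAT and to 91.0, 89.2 and 322 CPM in RWAT. Their sum was 23.2 to 29.9 CPM in IWAT and 16.2 to 18.7 CPM in BAT, of which Cldn15 alone gave 10.6 to 25.1 CPM. The list's Upk3b, Upk1b and Wt1 were at 0 in BAT 1, BAT 3 and IWAT 1. In the test among depots 8 of its 11 members were called, where 0.512% of all genes were called. RWAT 3 thus held the largest mesothelial sum of RWAT as well as the most Col4a6, Col4a5 and Col6a5. The 8 epithelial markers summed to 70.9, 33.9 and 18.8 CPM in EWAT and to 44.5 CPM in RWAT 3, against 7.39 to 16.9 CPM in the 8 other libraries. Of the 7 epithelial markers tested, 1 was called among depots, where 0.512% of all genes were called. The macrophage sum was also highest in EWAT, at 5496 to 7477 CPM against at most 5483 CPM in the other depots. The pericyte and smooth muscle sum did not set EWAT apart, at 570 to 755 CPM there and 482 to 1102 CPM elsewhere. Of this sum Des gave 522 and 381 CPM in BAT 1 and BAT 2 and 518 CPM in RWAT 3, libraries with large skeletal muscle sums. The member Acta2 was at 201, 261 and 159 CPM in EWAT, against 19.6 to 129 CPM in BAT and IWAT. In RWAT Acta2 was at 49.7, 238.5 and 244 CPM. Rgs5 went the other way, at 74.4 to 100 CPM in EWAT and 113.5 to 241 CPM in BAT. In BAT over EWAT 4 of the 9 members had a log2 fold change above 0 and 5 below. The part of these cells in the results was not tested. In these whole-tissue samples, fewer cells of a type and less RNA per cell cannot be told apart.

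The most abundant type IV chains did not follow that pattern. Col4a1 and Col4a2, which together make the type IV network found in nearly all basement membranes, start within 22 shared bases on opposite strands of chromosome 8. Col4a1 was at 222, 390 and 535 TPM in BAT, 523, 619 and 531 in EWAT, 491, 459 and 621 in IWAT, and 602, 875 and 383 in RWAT. The depots overlapped, with BAT 1 lowest and RWAT 2 highest in TPM. On the CPM scale, which is scaled between libraries, RWAT 3 was lowest at 998 CPM and RWAT 2 highest at 1960 CPM. The adjusted p for any depot difference was 0.972. Col4a2 ran from 137 TPM in BAT 1 to 409 TPM in RWAT 2 (adjusted p = 0.996). Col4a1 over Col4a2 stayed between 1.62 and 2.15 in the 12 libraries. Genes on the opposite strand overlap both, and whether reads were counted by strand is not given in the sources used here. Col15a1, the basement membrane linker, lay between 134 and 340 TPM, with EWAT at 340, 315 and 332 TPM (adjusted p = 0.943). Col18a1, the precursor of the fragment endostatin, lay between 16.1 and 127 TPM (adjusted p = 0.867). These adjusted p-values come from edgeR's test for any depot difference, and none of these 4 genes was called in any of the 19 alternative fits of it.

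Col4a3 and Col4a4, whose products join the alpha 5 chain in the kidney filter, form another pair on opposite strands, 71 bases apart on chromosome 1. Both stood out in EWAT 2, at 4.91 TPM of Col4a3 and 4.22 TPM of Col4a4. The other 11 libraries held 0.06 to 1.34 TPM of Col4a3 and 0.15 to 1.37 TPM of Col4a4. The other two EWAT libraries lay inside that range, so the high value was in 1 library of the depot (adjusted p for any depot difference 0.633 for Col4a3 and 0.614 for Col4a4). These genes were named after their values were seen.

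Among network collagens, the 3 classical type VI chains were abundant in every depot. Col6a3 was at 63.1, 156 and 454 TPM in BAT, 224, 151 and 273 in EWAT, 160, 222 and 610.3 in IWAT, and 121, 603 and 556 in RWAT. The ranges of BAT and RWAT covered that of EWAT and the range of IWAT overlapped it, and the adjusted p for any depot difference was 0.676. Col6a1 ran from 46.7 to 326 TPM (adjusted p = 0.942) and Col6a2 from 45.0 to 311 TPM (adjusted p = 0.966), with Col6a1 over Col6a2 between 0.924 and 1.21. The proportion of the alpha 3 chain did separate EWAT. Col6a3 over Col6a1 was 0.946, 0.900 and 1.04 in EWAT, while it was 1.35 to 1.69 in BAT, 1.82 to 1.90 in IWAT and 1.38 to 1.88 in RWAT. The 3 EWAT ratios were below the 9 others, a pattern noticed after the values were seen and given without a test.

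Col8a1, a lattice collagen of vessel walls, was at 0.67, 2.22 and 8.16 TPM in BAT, 16.9, 10.4 and 10.2 in EWAT, 1.36, 6.34 and 18.7 in IWAT, and 3.79, 32.7 and 31.0 in RWAT. IWAT and RWAT each spanned the EWAT values, and the adjusted p was 0.445. Its partner Col8a2 had 0 counts in BAT 1, which allows up to 3 counts or 0.236 CPM, and reached 6.39 TPM in EWAT 1 (adjusted p = 0.415). Col10a1, best known from growth plate cartilage, was at 0.28 to 2.24 TPM (adjusted p = 0.667).

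The fibrillar collagens made up most collagen RNA, and their level varied widely between libraries of 1 depot. Col3a1, Col1a1 and Col1a2, the chains of types III and I, together gave 52.2% to 81.8% of all collagen TPM. Col1a1 was at 134, 369 and 2239.5 TPM in BAT and at 2040.4, 1032 and 1842 TPM in EWAT. It was at 283, 1000.1 and 3016 TPM in IWAT and at 353, 2901 and 4249 TPM in RWAT. In BAT, IWAT and RWAT alike the lowest library was below all 3 EWAT libraries and the highest was above them. Col3a1 was at 618, 1952 and 7242 TPM in BAT, 3155, 2634 and 2961 in EWAT, 1292, 3325 and 7330.0 in IWAT, and 1493, 5442 and 10116 in RWAT. The adjusted p for any depot difference was 0.811 for Col1a1, 0.835 for Col1a2 and 0.815 for Col3a1. It was 0.746 for Col5a1 and 0.732 for Col5a2, the type V chains that start fibrils. None of these 5 was called in any of the 19 alternatives.

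**Figure D2:**
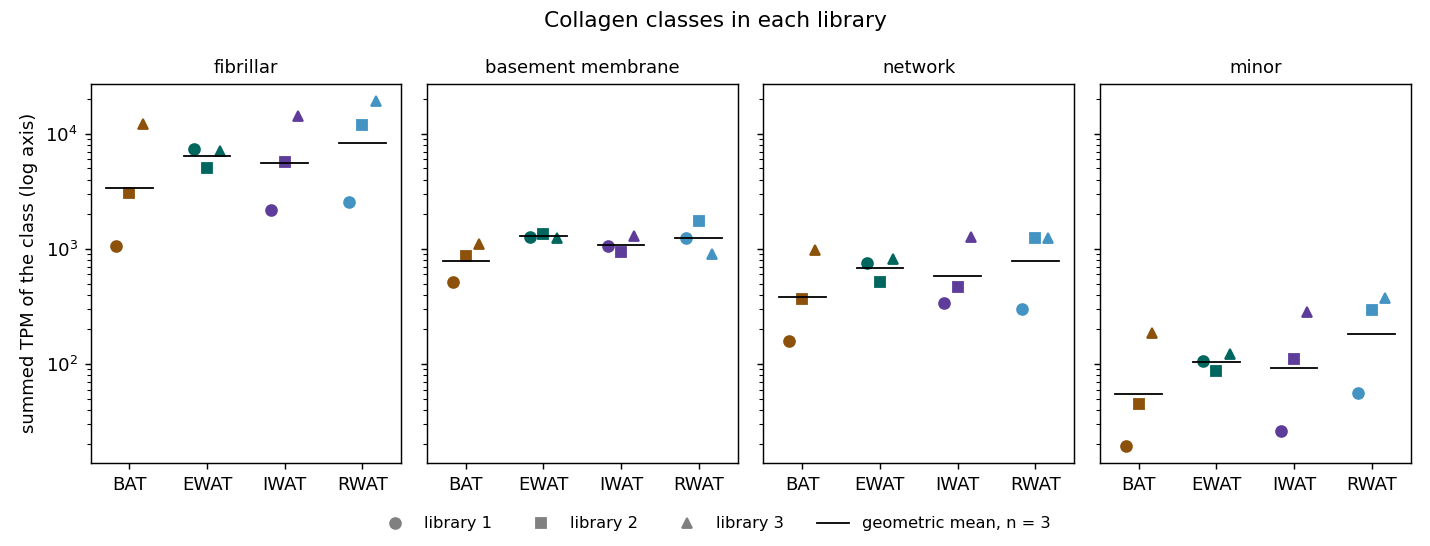
Summed TPM of the 4 collagen classes in each library, on 1 shared log axis; points are libraries, shapes give their number and lines are geometric means of 3. The fibrillar sum spans 1053 to 12194 TPM within BAT, while the basement membrane sum stays between 512 and 1733 TPM over all libraries.

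Summed over the class, fibrillar collagens were at 1053, 3028 and 12194 TPM in BAT, 7388, 5079 and 7074 in EWAT, 2166, 5679 and 14109 in IWAT, and 2558, 11951 and 19271 in RWAT. The highest library exceeded the lowest by 11.6 times in BAT, 6.51 times in IWAT and 7.53 times in RWAT, against 1.45 times in EWAT. Basement membrane collagens differed within a depot by 2.14 times in BAT, 1.09 in EWAT, 1.38 in IWAT and 1.92 in RWAT. These sums are TPM, which is not scaled between libraries, and the spread depends on that. On the CPM scale Col4a1 was at 1303, 1354 and 1506 CPM and Col4a2 at 777, 776 and 768 CPM in BAT 1 to 3. Col1a1 was at 917, 1627 and 8465 CPM there. The mean fibrillar share of collagen TPM was 71.7% ± 12.1 in BAT, 75.4% ± 2.83 in EWAT, 74.2% ± 12.2 in IWAT and 76.2% ± 13.5 in RWAT (SD, n = 3 each), so the depots differed by less than the spread within 3 of them. The basement membrane share ran from 4.15% in RWAT 3 to 29.7% in RWAT 1, which covers the shares of all the other libraries. Network collagens held 5.75% to 9.50% and minor collagens 0.729% to 1.93%. All collagens together took 0.174% of the TPM of BAT 1 and 2.18% of that of RWAT 3.

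Marker sums of some other cell types also differed between libraries inside BAT, IWAT and RWAT. The 12 adipocyte markers summed to 35847, 38678 and 16220.5 CPM in BAT 1 to 3, to 47968, 38599.8 and 12669 CPM in IWAT 1 to 3, and to 36449.9, 7949 and 4825 CPM in RWAT 1 to 3. In EWAT, whose fibrillar sums were close together, the adipocyte sum was 8495 to 12357 CPM. The macrophage markers, 11 gene identifiers for 10 genes, summed to 1056, 1394 and 5129 CPM in BAT and to 1721, 2919 and 5483 CPM in IWAT. They summed to 1887, 5199 and 4771 CPM in RWAT and to 5496 to 7477 CPM in EWAT. The libraries with most fibrillar collagen in BAT and IWAT thus held the smallest adipocyte and the largest macrophage sums. In RWAT the library with most fibrillar collagen held the smallest adipocyte sum, while the largest macrophage sum was in RWAT 2. The 12 fibroblast and progenitor markers summed to 1447, 1572 and 2201 CPM in BAT, 1516, 1911 and 1687 in IWAT, 1321, 1209 and 2243 in RWAT, and 889 to 1164 CPM in EWAT. Their sum was largest in the library with most fibrillar collagen in BAT and RWAT but not in IWAT. The skeletal muscle sum was 22981, 16222 and 2703 CPM in BAT 1 to 3 and 89.7, 90.2 and 18695 CPM in RWAT 1 to 3. In the library with most fibrillar collagen it was thus smallest for BAT and largest for RWAT. The endothelial sum did not follow the fibrillar order in BAT, at 721, 538 and 696 CPM. The part of these cells in the fibrillar levels was not tested.

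**Figure D3:**
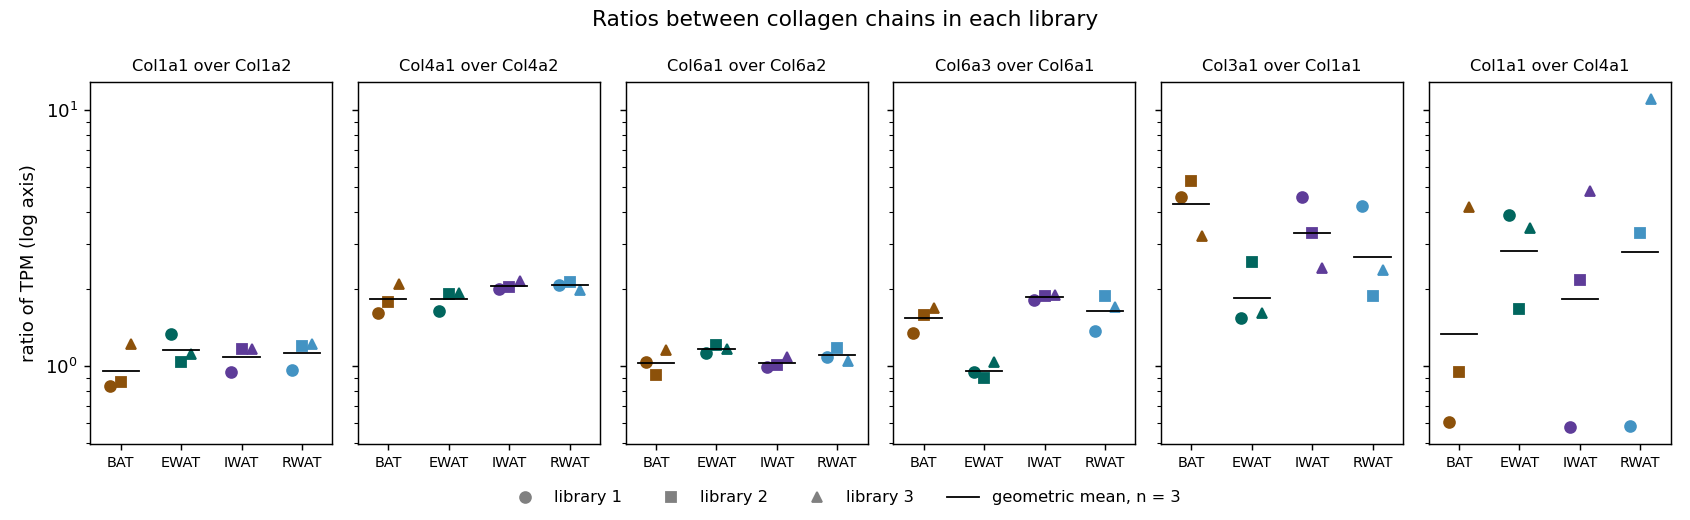
Ratios of TPM between pairs of collagen chains in each library, on 1 shared log axis; points are libraries, shapes give their number and lines are geometric means of 3. Col1a1 over Col1a2, Col4a1 over Col4a2 and Col6a1 over Col6a2 vary little, Col6a3 over Col6a1 is lower in EWAT, and Col1a1 over Col4a1 runs from 0.577 to 11.1.

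Some partner chains kept close proportions over the 12 libraries and others did not. Col1a1 over Col1a2, which build type I collagen, stayed between 0.837 and 1.33 although Col1a1 itself varied 31.6-fold and Col1a2 21.6-fold among the libraries. Col5a1 over Col5a2 stayed between 0.509 and 0.723. Col5a3 over Col5a1, also type V chains, ran from 0.481 to 2.44. Among low genes, Col4a3 over Col4a4 ran from 0.242 to 1.31, and Col8a1 over Col8a2 from 2.64 to 35.2 in the 11 libraries with Col8a2 counts. Col1a1 over Col4a1, a fibrillar against a basement membrane chain, ran from 0.577 in IWAT 1 to 11.1 in RWAT 3. Col3a1 over Col1a1 was 3.23 to 5.30 in BAT and 1.55 to 2.55 in EWAT, which did not overlap, while IWAT (2.43 to 4.57) and RWAT (1.88 to 4.23) each overlapped both. These ratios are descriptions and were not tested.

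Col5a3, a type V chain known to affect fat in mice that lack it, was the fibrillar gene with the smallest p of the test among depots. It was at 49.9, 85.2 and 160.5 TPM in BAT, 105, 70.6 and 106 in EWAT, 115, 113 and 224 in IWAT, and 158, 192 and 222 in RWAT. On the CPM scale, which is scaled between libraries, the 3 EWAT libraries held 449, 279 and 356 CPM, all below the 9 others. On the TPM scale they overlapped BAT and were below IWAT and RWAT. Its adjusted p was 0.202, so it was not called. EWAT libraries were all below the 9 others for 2.58% of tested genes and all above for 3.57%; Col5a3 was the 1 collagen gene of the first kind, and Col4a6, Col4a5 and Col6a5 were the 3 of the second. Rarer fibrillar genes, Col24a1, Col11a1 and Col27a1, were at most 17.4, 2.52 and 11.7 TPM and were not called (adjusted p 0.359, 0.352 and 0.718).

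Of the minor collagens, the fibril-associated chains Col14a1, Col12a1 and Col16a1 were the most abundant. Col14a1 was at 10.0, 24.3 and 67.3 TPM in BAT, 30.2, 20.8 and 25.4 in EWAT, 12.5, 53.1 and 92.9 in IWAT, and 27.0, 44.3 and 142 in RWAT (adjusted p for any depot difference 0.526). Col12a1 went from 2.44 TPM in BAT 1 to 149 TPM in RWAT 2 (adjusted p = 0.672), and Col16a1 from 3.30 to 99 TPM (adjusted p = 0.803). All 3 had their lowest BAT, IWAT and RWAT values in TPM in library 1 of the depot, as did Col1a1, Col1a2 and Col3a1. On the CPM scale Col12a1 was instead lowest in BAT 2, at 25.0 CPM against 29.1 CPM in BAT 1.

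Col22a1, a collagen of tissue junctions, had the smallest p among minor collagens. It was at 9.12 and 13.6 TPM in EWAT 2 and EWAT 3 but at 0.35 TPM in EWAT 1 and at 0.03 to 0.64 TPM in the 9 libraries of the other depots. The 2 high values came from 186 and 167 estimated counts. The mean transcript length that the authors' tool assigned was 1335 and 1134 bases there, against 2377 to 8809 bases in the 10 other libraries, so reads were assigned to short isoforms. Its adjusted p was 0.0803 and it was not called. It was called without EWAT 1 (0.00556) and by DESeq2 (0.00019). A gene on the opposite strand overlaps it.

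The other minor collagens and Col11a2 were low and none was called among depots. Col26a1 reached 7.54 TPM and Col28a1, known from peripheral glia, reached 6.95 TPM in RWAT 2 (adjusted p 0.436 and 0.208). Col28a1 was at 4.36, 6.95 and 1.62 TPM in RWAT, against 0.53 to 2.81 TPM elsewhere, so RWAT 3 lay among the other depots. Col7a1, the anchoring fibril of skin, reached 3.63 TPM (adjusted p = 0.582), and Col9a3 reached 2.31 TPM in EWAT 2 (adjusted p = 0.588). The transmembrane collagens Col13a1, Col17a1, Col23a1 and Col25a1 reached 0.43, 1.29, 1.82 and 0.73 TPM. Among these 4 the lowest adjusted p was 0.208, for Col17a1. Col13a1 had its highest value in BAT, unlike most chains, with a log2 fold change of 2.44 over EWAT (SE 0.81) that was not called (adjusted p = 0.101). Col20a1 and Col11a2 reached 0.95 and 1.79 TPM (adjusted p 0.883 and 0.743).

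Over single comparisons, BAT against the average of all white depots called 1 collagen gene, Col4a6, lower in BAT (log2 fold change -3.59, SE 0.49, adjusted p = 0.0356), where 0.0992% of all genes were called and 0.0104% called lower. The call was lost without any of the 9 BAT, EWAT and IWAT libraries, at adjusted p-values from 0.0651 to 0.189, and with limma-voom (0.154). Without RWAT 3 the comparison called 3, adding Col4a5 and Col6a5, among 257 genes in all, and without BAT 2 it called 0 among 30. Of the 40 tested collagen genes 35 had a log2 fold change below 0, or 87.5%, as had 55.0% of all genes, and the collagen median was -0.49 against -0.07 over all genes. That median rested on the BAT libraries and IWAT 3: it was -0.15 without BAT 1, -0.26 without BAT 2, -0.79 without BAT 3 and -0.27 without IWAT 3. IWAT against EWAT and RWAT averaged called 1, again Col4a6, lower in IWAT (log2 fold change -3.56, SE 0.48, adjusted p = 0.0174), where 0.141% of all genes were called and 0.0313% called lower. That call was lost without BAT 2, EWAT 2, EWAT 3 or any IWAT library, at adjusted p-values from 0.0516 to 0.184, and it held without RWAT 3. The collagen median was -0.31 against -0.05 over all genes. It was -0.14 without IWAT 1, -0.14 without RWAT 3, -0.73 without IWAT 3 and -0.48 without RWAT 1. These comparisons share libraries and are not independent.

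BAT against EWAT called 3 collagen genes, Col4a6, Col4a5 and Col6a5, all lower in BAT, where 0.783% of all genes were called and 0.376% called lower. It called the same number without RWAT 3, among 372 genes in all, and 0 without BAT 2, among 6. IWAT against EWAT called 2, Col4a6 and Col6a5, where 0.345% of all genes were called and 0.146% called lower, and BAT against RWAT called 1, Col4a6, where 0.0574% were called and 0.0261% called lower. Without BAT 2 these counts were 2 among 24 genes in all and 0 among 1. Without RWAT 3 they were 2 among 89 and 1 among 45. EWAT against RWAT called 0 with edgeR, where 0.0418% of genes were called, with 6 collagen genes at an unadjusted p under 0.05 (9.04% of all genes). DESeq2 called 4 there, among 783 of 22878 genes, and limma-voom 0, among 8 of 19154. The collagen median there was -0.13 with all libraries, against -0.04 over all genes. Without RWAT 3 the collagen median was 0.06, against 0.004 over all genes, so its sign changed when that library was left out. It was -0.46 without RWAT 1, -0.36 without EWAT 1 and -0.30 without EWAT 2. BAT against IWAT called 0 (0.0104% of all genes), with 2 at an unadjusted p under 0.05, as were 3.85% of all. DESeq2 called 0 there, among 168 of 24881 genes, and limma-voom 0, among 2 of 19154. IWAT against RWAT called 0 (0.0% of all genes), with 4 at an unadjusted p under 0.05, as were 4.42% of all. DESeq2 called 2 there, among 163 of 22878 genes, and limma-voom 0, among 0 of 19154. No fibrillar or minor collagen was called by edgeR in any of these 9 tests. In the test among depots 1 fibrillar and 3 minor genes had an unadjusted p under 0.05, as did 17.1% of all genes. DESeq2 called 1 and 2 of them, where it called 2519 of 22210 genes in all. Limma-voom called 0 and 0, where it called 23 of 19154.

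**Figure D4:**
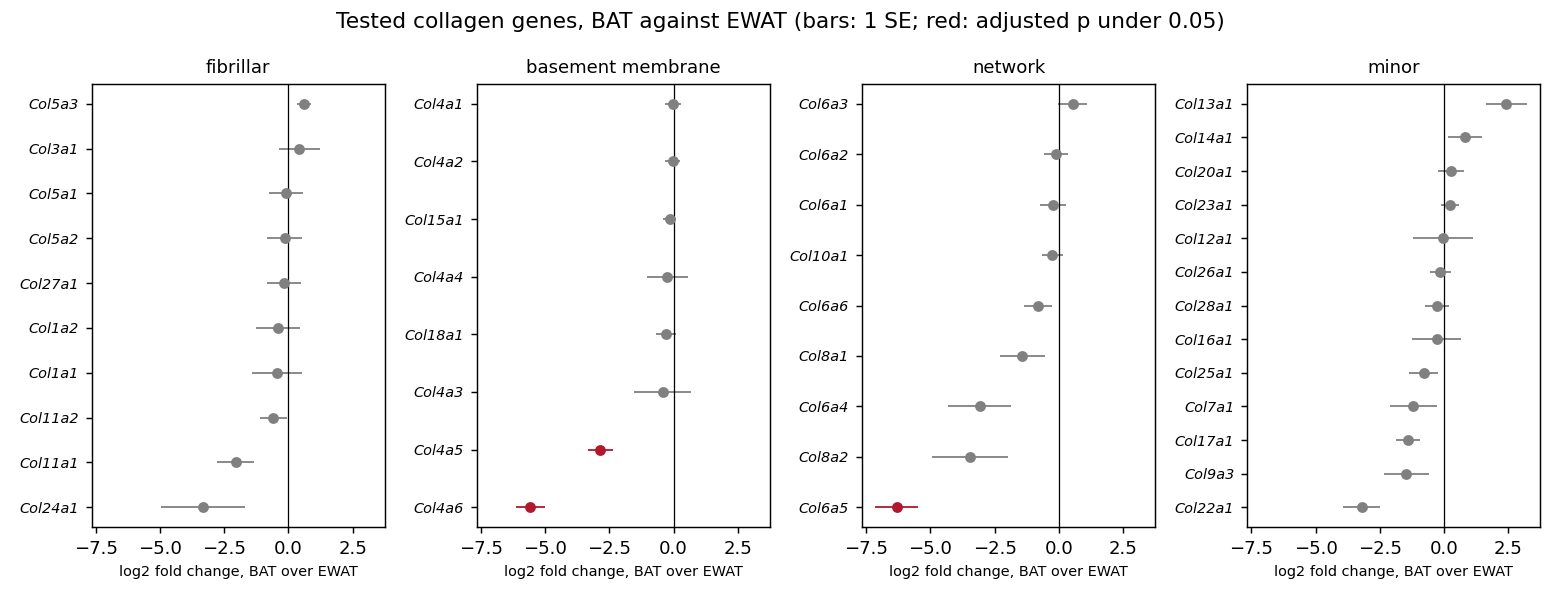
Log2 fold changes of the 40 tested collagen genes in BAT over EWAT, grouped by class, with bars of 1 SE from edgeR's quasi-likelihood fit; red points have an adjusted p under 0.05. Col4a6 (-5.58), Col6a5 (-6.31) and Col4a5 (-2.85) are the 3 called genes, while Col8a2 (-3.45, SE 1.48), Col24a1 (-3.32, SE 1.63), Col22a1 (-3.20, SE 0.73) and Col6a4 (-3.07, SE 1.23) lie further from 0 than Col4a5 and are not called.

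Genes that make, assemble and bind collagen were examined in 5 lists. Of 21 genes for collagen modification and folding, all tested, edgeR called 0 in the 9 comparisons. In the test among depots 1 of them had an unadjusted p under 0.05, as had 17.1% of all genes. DESeq2 called 1 and limma-voom 0, where they called 2519 of 22210 and 23 of 19154 genes in all. The same shares over all genes apply to the next 2 lists. Serpinh1, the collagen chaperone HSP47 and the most abundant of the list, was at 553, 439 and 945 CPM in BAT, 526, 383 and 461 in EWAT, 534, 590 and 952 in IWAT, and 454, 1127 and 1238 in RWAT (adjusted p = 0.455). Of 15 genes for procollagen processing and crosslinking, 14 were tested and edgeR called 0 in the 9 comparisons, with 2 at an unadjusted p under 0.05 among depots, 2 called by DESeq2 and 0 by limma-voom. Pxdn, the peroxidase that forms the sulfilimine crosslinks of type IV collagen, was at 189 to 360 CPM (adjusted p = 0.213). It had the highest mean log2 CPM of the list. Lox, of the same list, varied more, from 49.4 CPM in BAT 1 to 857 CPM in RWAT 2. Of 10 collagen receptors and uptake genes, 9 were tested and edgeR called 0, with 2 at an unadjusted p under 0.05 among depots, 2 by DESeq2 and 0 by limma-voom. Itgb1, the shared beta 1 chain of the collagen-binding integrins, was at 306 to 745 CPM (adjusted p = 0.535).

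Of 16 fibril-associated proteoglycans and glycoproteins, 2 were called higher in BAT than in EWAT and 1 higher in IWAT than in EWAT, with none lower, where 0.407% and 0.198% of all genes were called higher. Dpt, dermatopontin, which binds decorin and speeds fibril assembly, was at 329, 340.4 and 379 CPM in BAT, 108, 70.7 and 68.5 in EWAT, 699.6, 524 and 290 in IWAT, and 285, 152 and 342 in RWAT. EWAT was below the other depots without overlap. Dpt was higher than in EWAT both in BAT (log2 fold change 2.09, SE 0.38, adjusted p = 0.0462) and in IWAT (2.62, SE 0.39, adjusted p = 0.0268). Tnxb, tenascin X, which spaces fibrils, was at 712, 838 and 776 CPM in BAT against 189, 135 and 91.6 CPM in EWAT (log2 fold change 2.48, SE 0.48, adjusted p = 0.0496). It was at 607, 871 and 490.2 CPM in IWAT and at 411, 142 and 585 CPM in RWAT, so RWAT 2 lay within the EWAT range. The fibroblast and progenitor marker sum was also lowest in EWAT, at 889 to 1164 CPM against 1209 to 2243 CPM in the 9 other libraries, and its part in these results was not tested. Dcn and Lum belong to both lists, and Dcn gave 308 to 478 CPM of the marker sum in EWAT. In BAT over EWAT 10 of the 12 markers had a log2 fold change above 0 and 2 below. The Dpt and Tnxb calls in BAT were lost without BAT 1, BAT 2, EWAT 2, EWAT 3, IWAT 1 or IWAT 2, and for Tnxb also without IWAT 3, at adjusted p-values of up to 0.171 for Dpt and 0.185 for Tnxb. The Dpt call in IWAT was lost without the same 6 libraries, at up to 0.154. In BAT the calls were also lost with limma-voom (0.0573 for Dpt and 0.0731 for Tnxb) and without TMM scaling (0.0537 and 0.0591).

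Of 16 partners of type IV collagen in the basement membrane, 1 was called, Lama1, lower in BAT than in EWAT, where 0.376% of all genes were called lower, and in the test among depots, where 0.512% were called. Lama1, a laminin chain of embryonic and some epithelial basement membranes, was at 0.0787, 0.458 and 0 CPM in BAT. The 0 counts in BAT 3 allow up to 0.147 CPM. Lama1 was at 9.81, 39.7 and 4.50 CPM in EWAT, 0.150, 0.111 and 0.313 in IWAT, and 0.179, 1.44 and 1.85 in RWAT. All 3 EWAT libraries were above the 9 others, as for Col4a6. The log2 fold change of BAT over EWAT was -6.66 (SE 1.3, adjusted p = 0.0498), and the adjusted p for any depot difference was 0.0447. Leaving out any of 8 libraries (BAT 1, BAT 2, EWAT 2, EWAT 3, the 3 of IWAT or RWAT 2) lost the first call, at up to 0.207, and these or BAT 3 lost the second, at up to 0.211. Limma-voom lost both (0.108 and 0.319), and RLE scaling (0.0505) and a filter of 1 CPM in 3 libraries (0.0504) lost the first. The mesothelial sums given above were also higher in EWAT than in BAT and IWAT, and their part in the level of Lama1 was not tested. Hspg2, perlecan, was at 768 to 1297 CPM with no call (adjusted p for any depot difference 0.702).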

How the data were processed

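RNA of 12 libraries from 4 denervated fat depots was analysed, 3 per depot. Libraries were made from total RNA after ribosomal RNA removal and read as single-end 75-base reads, per the labels' protocols. The submitters' processing notes name Trimmomatic 0.36, RSEM 1.3.0 and DESeq2 1.10.1 with GRCm38.p4; what annotation and strand setting were used is not given in the sources used here. Deposited values are RSEM's estimated counts per gene, and the TPM that the authors' RSEM run computed from them. A gene's transcript length and the spread of its estimated count are other columns of the deposited files; the first is quoted once.

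Estimated counts were rounded. Genes with few counts were removed (filterByExpr), leaving 19154, libraries were scaled by TMM, and edgeR 4.0.16 (R 4.3.3) fitted all 12 libraries with 1 coefficient per depot. SE is the log2 fold change over the root of F. A mean over depots is the mean of fitted log2 levels. TPM was used for levels between genes and for ratios, with no test. A 0 allows 3 counts, for counting error only. After TMM scaling, 3 counts were 0.163 CPM in RWAT 3, the smallest library, and 0.236 CPM in BAT 1. No 2 libraries of a depot were identical or within sampling noise. The test was tried on simulated counts.

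The collagen genes, their classes and the other lists were chosen with earlier results of these data known. Named were 14 abundant chains, every called chain and the gene with the smallest p among depots in each class. From each other list the called genes with the largest changes or the gene with the highest mean log2 CPM were named. All other genes were named after their values were seen. Coordinates are from GENCODE M21 (all 44 genes matched). Alternatives were DESeq2 1.42.0, limma-voom 3.58.1, RLE scaling, no TMM scaling, no filter, a filter of 1 CPM in 3 libraries, a block for the replicate number, and leaving out each library.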

Additional observations from a re-analysis of the deposited data

How the results depend on the processing

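Values are collagen genes called. DESeq2 called 6 among depots, 3 for BAT against white, 2 for IWAT against EWAT and RWAT, 4 for EWAT against RWAT, 7 for BAT against EWAT, 2 for BAT against RWAT, 5 for IWAT against EWAT and 2 for IWAT against RWAT. Over all genes it called, in the same order, 2519 of 22210, 903 of 20890, 338 of 21548 and 783 of 22878. The last 4 were 3451 of 21548, 306 of 20890, 1406 of 22878 and 163 of 22878. Limma-voom called 0 for BAT against white and 0 for BAT against RWAT. Leaving out 1 library gave 1 to 3 among depots, 0 to 3 for BAT against white, 0 to 2 for IWAT against EWAT and RWAT, 0 to 1 for EWAT against RWAT, 0 to 4 for BAT against EWAT, 0 to 1 for BAT against RWAT and 0 to 3 for IWAT against EWAT. These fits tested 19608 to 20694 genes. In the same order they called 11 to 1054, 1 to 263, 6 to 139, 0 to 804, 6 to 1996, 0 to 45 and 7 to 1097 genes in all. The log2 fold change of Col4a5 in IWAT over RWAT, not called, was -0.30, with a range of -0.66 to 0.50 when 1 library was left out; it was above 0 only without RWAT 3, and the cause was not tested. RLE scaling, no TMM scaling and both filters moved none of the 9 counts of calls by over 1.5 times. Without TMM the median log2 fold change of BAT against white was -0.46 over all genes and -0.85 over collagens.

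The labels do not say what a shared replicate number marks. Of 18 same-numbered pairs 10 correlated above 0.1 (r from -0.41 to 0.74), as did 10 of 36 different-numbered pairs (-0.73 to 0.66). Of 12 libraries 7 correlated best with their own number. With the replicate number as a block, BAT against white called 3 collagens among 649 genes in all, where the main fit called 19 genes. BAT against EWAT called 7 among 3542, where the main fit called 150. BAT against RWAT called 0 among 1. Each fit tested 19154 genes, so the block raised the first 2 counts over all genes too. Col4a6 and Col6a5 were called among depots with the block too, and the other counts moved by at most 1.5 times. The collagen median of EWAT against RWAT was -0.003 with the block, with 20 collagen genes above 0 and 20 below.

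From estimated counts in place of TPM, the minor share was 1.64%, 1.46%, 1.85% and 2.27% and the network share 11.2%, 9.99%, 10.2% and 8.67% in BAT, EWAT, IWAT and RWAT, since long transcripts weigh more. Single genes near 0, such as Col4a6 in BAT, are limited by depth.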
